A study of Homo sapiens and Mus musculus with 4 samples.

Results

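The genes described here are 42 genes of mitosis and the spindle, chosen by symbol. All 42 were found among the 32738 human genes of the table, and all 42 mouse genes of the same symbol among the 27998 mouse genes, 84 of 60736 genes in all. Messenger RNA was sequenced in bulk from 4 established cell lines of blood-cell origin, with 1 library per line. Both human lines came from T-cell leukaemias, Jurkat being classed by the study as CD4 and TALL104 as CD8. Of the mouse lines, EL4 came from a T-cell lymphoma, and IVA12 is a hybridoma of B-cell descent. No line was treated as part of the comparison, but per the study's methods the lines grew in different media, and the medium of TALL104 alone held interleukin-2, so line and medium cannot be told apart. The study described TALL104 cells as smaller than the cells of the other lines, and as harder to culture, with lower viability and slow growth. Whether growth or viability bears on the values given here was not tested. Values are FPKM, the fragments of a gene corrected for its length and for the depth of the library. With 1 library per line there was no spread between replicates to set a difference against, and no test was made.

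A cell enters mitosis when cyclin B and the kinase CDK1 become active together, after phosphatases of the CDC25 family remove inhibitory phosphates from CDK1. The spindle then attaches to each chromosome at its kinetochore, and a checkpoint holds the anaphase-promoting complex in check until the attachments are made, after which securin and the B cyclins are destroyed and the cell divides. Most of these genes are transcribed in a wave that peaks in G2 and mitosis, so their RNA is widely used as a sign of cycling cells, and lymphoid tumour lines in culture usually carry much of it. In bulk RNA, fewer cells of the cycling kind and less of this RNA per cell cannot be told apart.

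The libraries held 25286728 (IVA12) to 34783047 (Jurkat) recovered reads, of which 34614 (TALL104) to 326026 (EL4) lay on the 42 genes of the library's own species. Intervals given in parentheses are exact 95% intervals for the counting of reads, and cover counting error only. The T cell genes CD3D, CD3E, CD3G and LCK were at 61.3 to 400.1 FPKM in both human lines and at 63.6 to 197 FPKM in EL4, while CD28 was at 0.989 FPKM in TALL104 and Cd7 was listed at 0 in EL4. In IVA12 these 4 T cell genes were at 0.0275 to 1.15 FPKM and the plasma cell gene Jchain was at 1289 FPKM, but the B cell genes Cd79a and Pax5 were at 0.0543 and 0.156 FPKM. Of the 9 T cell markers listed, 3 were at 1 FPKM or more in IVA12, the highest at 9.99 FPKM. Of 9 T cell markers, 4 were higher in Jurkat and 1 in TALL104, and 8 were higher in EL4. Of the 9 B and plasma cell markers reported here, 1 was higher in Jurkat, 3 in TALL104, and 6 in IVA12. Some of these markers were also present in the T cell lines. The highest was at 47.7 FPKM in Jurkat, 76.6 FPKM in TALL104 and 15.9 FPKM in EL4. Higher means here by more than 1.5-fold on FPKM + 1. Among human genes at 1 FPKM or more in either line, 34.2% passed this fold toward Jurkat and 28.4% toward TALL104. The mouse shares at that level were 23.8% (EL4) and 26.5% (IVA12). The human marker counts are too small to read a lineage difference from them. Myeloid genes were at or under 1.47 FPKM in the human lines and 2.43 FPKM in EL4, and Cd68 was at 22.5 FPKM in IVA12. Only 4 of the 5 myeloid genes listed were matched by symbol in mouse.

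In the human pair, 41 of the 42 genes were higher in Jurkat than in TALL104 by more than 1.5-fold, taken on FPKM + 1, and none was higher in TALL104. Of all human genes, 13.8% were higher in Jurkat by this fold and 11.4% in TALL104, and of the 12214 human genes at 1 FPKM or more in either line, 34.2% and 28.4%. The median log2 ratio of the 42 genes was 3.20, against 0 over all human genes and 0.10 over those at 1 FPKM or more in either line. Only CDC25B was within 1.5-fold, and it alone had its higher value in TALL104. The 42 genes summed to 2110 FPKM in Jurkat and to 270.0 FPKM in TALL104, which was 0.832% and 0.107% of the FPKM on human genes. Among human genes at 1 FPKM or more, the median of the 42 stood at percentile 89.5 in Jurkat. In TALL104 the median of the 40 genes that reached 1 FPKM stood at percentile 20.7. CDC25B and BUB3 together made up 37.04% of the sum in TALL104 and 6.94% in Jurkat. Mitochondrially encoded genes held 20.6% of the FPKM on human genes in TALL104 and 14.9% in Jurkat. With these genes left out and the sums made equal, the median log2 ratio of the 42 was 3.13, with 41 higher in Jurkat. Every one of the 42 genes was above 0 in both lines. The mouse genes of the same symbols serve as a background, and reached at most 0.123 FPKM in Jurkat and 0.0587 FPKM in TALL104. The source of the reads on mouse genes was not tested.

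The mouse pair showed no such shift. Of the 42 mouse genes, 6 were higher in EL4, 7 were higher in IVA12 and 29 differed by less than 1.5-fold, with a median log2 ratio of -0.08. Of all mouse genes, 9.75% were higher in EL4 and 11.2% in IVA12, and of the 10801 at 1 FPKM or more in either line, 23.8% and 26.5%, with medians of 0 and -0.04. The shares of the 42 genes, 14.3% and 16.7%, were above those of all mouse genes and below those of genes at 1 FPKM or more in either line. All 42 were themselves at 1 FPKM or more in both lines. The 42 genes summed to 2155 FPKM in EL4 and 2214 FPKM in IVA12, which was 0.670% and 0.686% of the FPKM on mouse genes. The median gene stood at percentile 85.2 in EL4 and 86.9 in IVA12. By these measures Jurkat, EL4 and IVA12 lay near each other and TALL104 apart, although FPKM of human and mouse genes rest on different annotations and can be set side by side only roughly.

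**Figure D1:**
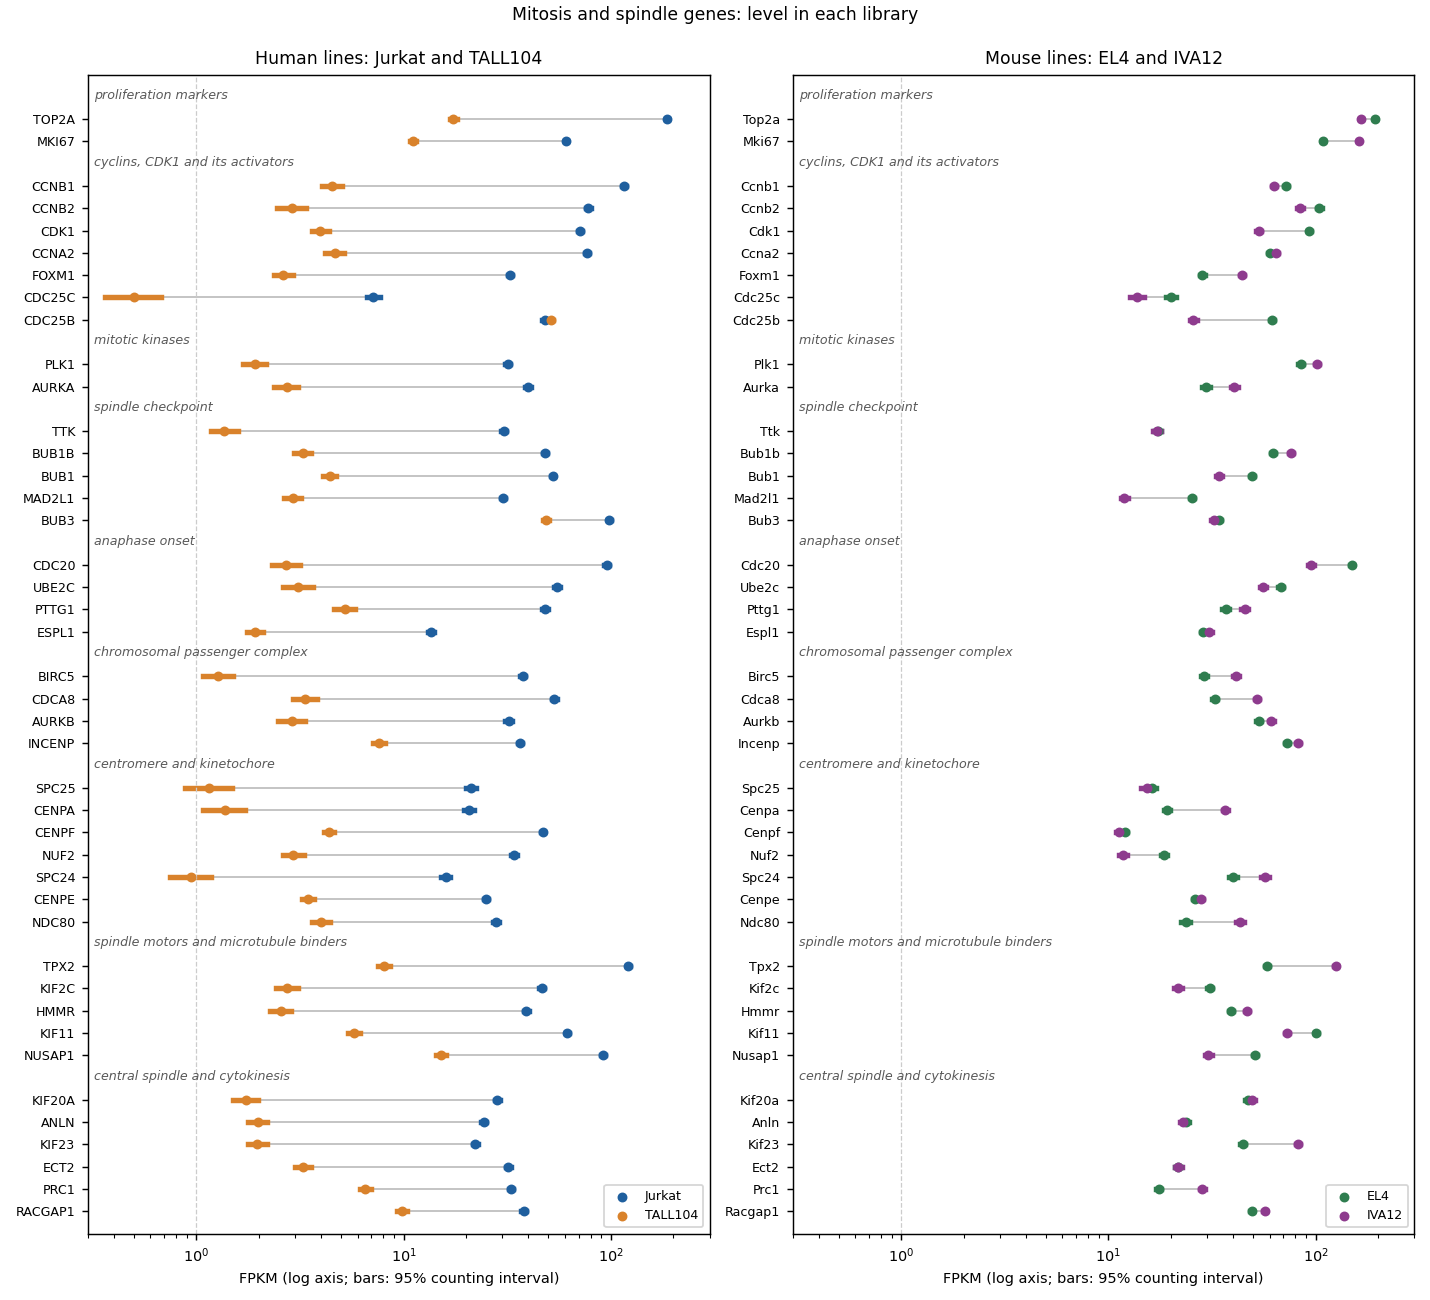
Level of each of the 42 genes in FPKM (log axis) in the human lines (left) and the mouse lines (right), grouped by role, with bars for the 95% counting interval and a dashed line at 1 FPKM. In the human panel the TALL104 points lie to the left of the Jurkat points for 41 genes, with CDC25B the exception, while in the mouse panel the points of both lines lie within 2.4-fold of each other.

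**Figure D2:**
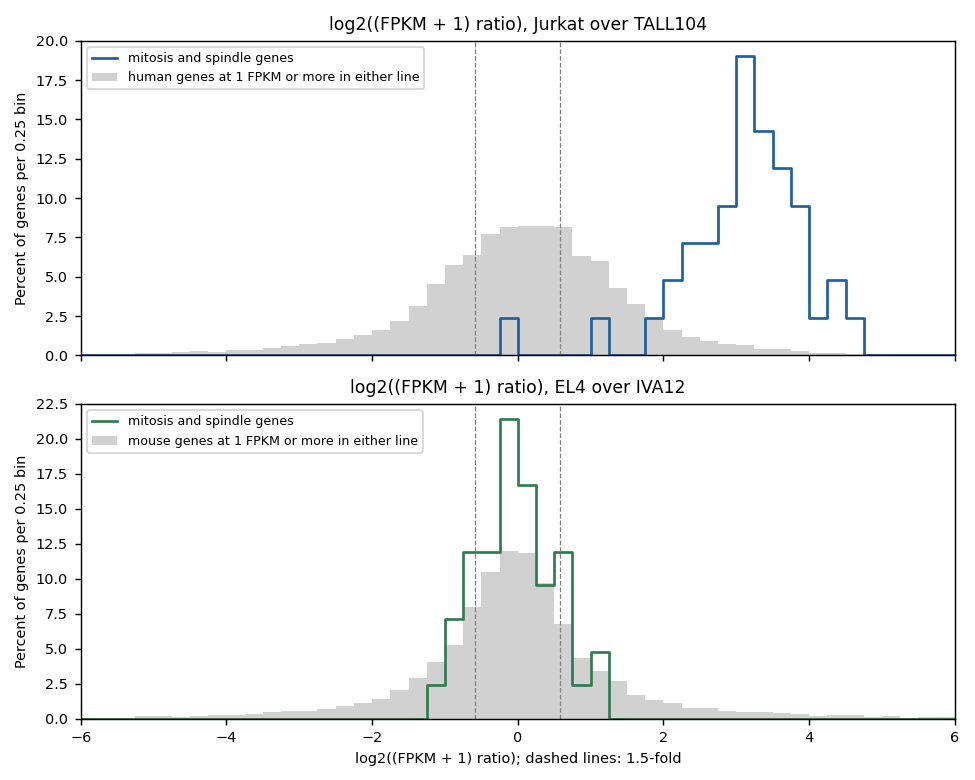
Distribution of the log2 ratio of FPKM + 1 in the human pair (top) and the mouse pair (bottom), as the percent of genes per bin, for genes at 1 FPKM or more in either line (grey bars) and for the 42 genes (line). The 42 genes centre on 3.20 in the human pair and on -0.08 in the mouse pair, and ratios beyond the axis range are not drawn.

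The B cyclin genes had the largest log2 ratios of FPKM + 1 in the human pair after CDC20. CCNB1 (cyclin B1, ENSG00000134057, chromosome 5, 68462962 to 68474072, hg19) was at 116 FPKM in Jurkat (114 to 118) and 4.51 FPKM in TALL104 (4.03 to 5.03), a log2 ratio of 4.41 and a 25.7-fold ratio of FPKM (23.04 to 28.8). CCNB2, the other major B cyclin (ENSG00000157456, chromosome 15, 59397325 to 59417244), was at 77.99 FPKM against 2.88 FPKM, 27.1-fold (23 to 32.1). Their kinase CDK1 (ENSG00000170312, chromosome 10, 62538089 to 62554610) was at 71.2 FPKM against 3.96 FPKM, 17.98-fold (16.3 to 19.8). The B cyclins and CDK1 thus fell in the same range of ratios, 18.0-fold to 27.1-fold. Cyclin A2, which pairs with CDK2 and CDK1 in S phase and G2, was at 76.9 FPKM against 4.65 FPKM in the gene CCNA2 (log2 ratio 3.79).

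The CDC25 phosphatases went separate ways. CDC25B (ENSG00000101224, chromosome 20, 3767419 to 3786768, hg19), which starts the activation of CDK1 in late G2, was at 47.9 FPKM in Jurkat (46.8 to 49.1) and 51.3 FPKM in TALL104 (50 to 52.6), a log2 ratio of -0.10. It was the highest of the 42 genes in TALL104, while in Jurkat its level was close to that of BUB1B and KIF2C. CDC25C (ENSG00000158402, chromosome 5, 137620958 to 137674044), which acts in the feedback that makes CDK1 activation abrupt, was the lowest of the 42 in both human lines, at 7.14 FPKM (6.64 to 7.67) in Jurkat and 0.499 FPKM (0.361 to 0.672) in TALL104, where only 43 reads were recovered. Its FPKM ratio was 14.3 (10.53 to 19.96), but the log2 ratio on FPKM + 1 was 2.44, since the added 1 weighs on so low a value. FOXM1, the transcription factor that drives many G2 and mitosis genes, was at 32.6 FPKM in Jurkat and 2.63 FPKM in TALL104 (log2 ratio 3.21), and 15.9% of its exons overlap ITFG2 on the opposite strand.

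The same group split in the mouse lines. Cdc25b (ENSMUSG00000027330, chromosome 2, 131186949 to 131198497, mm10) was at 61.8 FPKM in EL4 (60.4 to 63.2) and 25.7 FPKM in IVA12 (24.7 to 26.8), 2.4-fold (2.29 to 2.51), the widest difference of the 42 in that pair (log2 ratio 1.23). Cdk1 was at 93.5 FPKM in EL4 and 53.1 FPKM in IVA12 (log2 ratio 0.80). Foxm1 lay the other way, at 28.4 FPKM in EL4 and 44.1 FPKM in IVA12 (log2 ratio -0.62). The cyclins were nearer to each other: Ccnb2 was at 104 and 84.2 FPKM, Ccnb1 at 72.1 and 63.2 FPKM, and Ccna2 at 60.4 and 64.6 FPKM in EL4 and IVA12. Other annotated mouse genes, the pseudogene Ccnb1-ps among them, share 14.8% of the read-length windows of Ccnb1, so the level of Ccnb1 is less certain. Cdc25c was at 20.05 and 13.7 FPKM, within 1.5-fold.

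Promoters of G2 and mitosis genes are known for a pair of short elements, CCAAT boxes that bind NF-Y and, nearer the start of transcription, the cell cycle genes homology region (CHR), which binds the MuvB complexes. The stretches shown are the 130 bases before the RefSeq transcript start (GRCh38.p14, plus strand) of the 3 genes with the largest human log2 ratios of FPKM + 1, and of CDC25B, the 1 gene within 1.5-fold. Capitals mark the letters CCAAT, the CHR core TTTGAA and the related TTCGAA, each searched on both strands, so that ATTGG and TTCAAA count as well.
CDC20 (chr1:43358851-43358980): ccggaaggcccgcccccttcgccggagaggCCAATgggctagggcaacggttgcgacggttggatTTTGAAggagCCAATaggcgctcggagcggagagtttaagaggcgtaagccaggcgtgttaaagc
CCNB1 (chr5:69167020-69167149): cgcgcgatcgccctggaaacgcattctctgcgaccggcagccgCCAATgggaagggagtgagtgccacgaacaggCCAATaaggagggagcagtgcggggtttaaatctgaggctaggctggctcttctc
CCNB2 (chr15:59105016-59105145): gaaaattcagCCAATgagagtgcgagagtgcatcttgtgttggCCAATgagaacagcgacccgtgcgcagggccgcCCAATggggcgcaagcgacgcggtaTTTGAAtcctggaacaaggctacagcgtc
CDC25B (chr20:3796180-3796309): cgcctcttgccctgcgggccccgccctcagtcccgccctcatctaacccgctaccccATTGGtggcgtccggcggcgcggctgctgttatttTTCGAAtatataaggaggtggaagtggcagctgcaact
The CDC20 stretch holds CCAAT on each side of TTTGAA, the CCNB2 stretch holds 3 CCAAT and then TTTGAA, and the CCNB1 stretch holds 2 CCAAT and no TTTGAA. CDC25B has 4 transcript starts in the table, and the stretch shown is the only 1 of the 4 with a marked element, which are ATTGG and TTCGAA.

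Promoter windows of 300 bases, 250 before to 50 after the start, were given for 34 of the 42 human genes (44 windows) and for 27305 human genes in all (35116 windows). TTTGAA was found for 24 of the 34 genes (70.6%), against 18.2% of all genes, and within 75 bases before a start for 18 of them, against 4.56% of all genes. CCAAT was found for 28 of the 34 (82.4%), against 39.7% of all genes, and at least 2 copies in 1 window for 19 (55.9%), against 12.9%. Both in the same window were found for 20 of the 34 (58.8%), against 7.26% of all genes, and a TTTGAA and a CCAAT overlapped at 2 sites. TTCGAA was found for 3 of the 34 (8.82%), against 1.82%. The presence of TTTGAA did not order the ratios of the human pair. The median log2 ratio was 3.16 for the 24 genes with it and 3.22 for the 10 without it, which ran from -0.10 (CDC25B) to 4.41 (CCNB1). No entry was used for AURKA, BIRC5, BUB3, FOXM1, RACGAP1, TPX2, TTK and UBE2C. A match of letters is a description of the sequence and not a measured binding site.

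**Figure D3:**
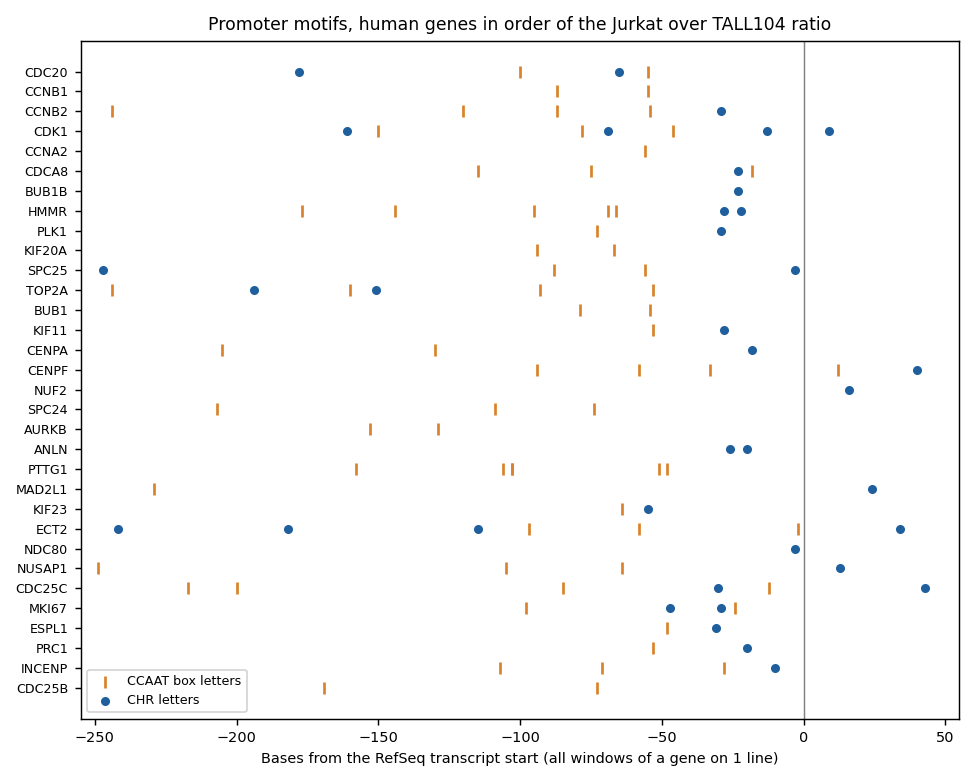
Position of the CCAAT letters (ticks) and the CHR letters (dots) in bases from the transcript start for the human genes with at least 1 such match, in order of the Jurkat over TALL104 ratio from the highest (top) to the lowest. CHR letters fall within 75 bases before a start for 18 genes, from CDC20 down to INCENP near the bottom of the order.

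Of the proliferation markers, TOP2A was among the 5 highest of the 42 genes in every library. TOP2A (ENSG00000131747, chromosome 17, 38544777 to 38574148, hg19), the topoisomerase that untangles sister chromatids, was the highest in Jurkat at 187 FPKM (185 to 188) and the third in TALL104 at 17.4 FPKM (16.8 to 18.02), and Top2a was the highest in both mouse lines, at 194 FPKM in EL4 and 166 FPKM in IVA12. MKI67, the gene of the Ki-67 antigen that coats mitotic chromosomes, was at 60.6 FPKM in Jurkat and 11.1 FPKM in TALL104, a log2 ratio of 2.35 against 3.35 for TOP2A. Mki67 was at 108 FPKM in EL4 and 161 FPKM in IVA12, which at 1.48-fold was the nearest to the 1.5-fold limit from below. In FPKM, the Ki-67 gene was lower in Jurkat than in either mouse line, while TOP2A in Jurkat lay between Top2a in IVA12 and in EL4.

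Of the mitotic kinases, PLK1, which acts in spindle assembly and mitotic exit, was at 31.8 FPKM in Jurkat and 1.91 FPKM in TALL104 (log2 ratio 3.49). AURKA, the kinase of spindle poles, was at 39.9 and 2.72 FPKM (log2 ratio 3.46). TPX2, which binds microtubules and activates AURKA, stood higher than its kinase in all 4 lines, at 122 FPKM in Jurkat and 8.02 FPKM in TALL104, and at 58.4 and 125 FPKM in EL4 and IVA12. Tpx2 had the largest difference of the mouse pair in favour of IVA12, 2.15-fold (2.09 to 2.203), and Aurka and Plk1 lay the same way but within 1.5-fold (Aurka 29.6 and 40.5 FPKM, Plk1 84.8 and 102 FPKM in EL4 and IVA12).

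The spindle checkpoint genes differed among themselves in the human pair. TTK (the kinase MPS1, which recruits the other checkpoint proteins) was at 30.5 FPKM in Jurkat and 1.36 FPKM in TALL104, 22.4-fold (19.3 to 26.1). BUB1B, a part of the complex that inhibits CDC20, was at 48.1 and 3.26 FPKM, the kinase BUB1 at 52.5 and 4.404 FPKM, and MAD2L1 (MAD2) at 30.1 and 2.92 FPKM. BUB3 (ENSG00000154473, chromosome 10, 124913918 to 124929983, hg19), which carries BUB1 and BUB1B to the kinetochore, was the exception, at 98.5 FPKM in Jurkat (96.7 to 100.4) and 48.7 FPKM in TALL104 (47.3 to 50.2), a 2.02-fold ratio (1.95 to 2.09). BUB3 RNA was thus 48.7 FPKM in TALL104 beside 4.404 FPKM of BUB1, while in Jurkat the 2 lay within a factor of 2. Among mouse checkpoint genes, Mad2l1 was the only 1 past 1.5-fold, at 25.4 FPKM in EL4 and 11.9 FPKM in IVA12 (log2 ratio 1.03). Ttk (17.3 and 17.2 FPKM) and Bub3 (34.1 and 32.2 FPKM) had nearly equal values in EL4 and IVA12, Bub1 leaned to EL4 (49.3 and 34.2 FPKM) and Bub1b to IVA12 (62.5 and 76.03 FPKM), both within 1.5-fold.

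At the onset of anaphase, CDC20 (ENSG00000117399, chromosome 1, 43824652 to 43828874, hg19), the activator of the anaphase-promoting complex and the target of the checkpoint, had the largest ratio of all 42 genes. It was at 95.4 FPKM in Jurkat (93.1 to 97.7) and 2.72 FPKM in TALL104 (2.31 to 3.18), 35.1-fold (29.96 to 41.4) and 4.70 on the log2 scale of FPKM + 1. UBE2C, the ubiquitin-conjugating enzyme of that complex, was at 55.01 and 3.096 FPKM (log2 ratio 3.77). Securin, the inhibitor that is destroyed, and separase, the protease it frees, differed less: PTTG1 was at 48.3 and 5.195 FPKM (log2 ratio 2.99) and ESPL1 at 13.6 and 1.93 FPKM (log2 ratio 2.31). In the mouse pair Cdc20 was also the outlying gene of this group, at 149 FPKM in EL4 and 95.1 FPKM in IVA12 (log2 ratio 0.64), while Ube2c (67.9 and 55.6 FPKM), Pttg1 (36.8 and 45.4 FPKM) and Espl1 (28.7 and 30.7 FPKM) stayed within 1.5-fold. Part of Ube2c, 22.8% of its exons, overlaps Tnnc2 on the opposite strand.

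The 4 subunits of the chromosomal passenger complex, which corrects wrong attachments, spread widely in the human pair. BIRC5 (survivin, ENSG00000089685, chromosome 17, 76210267 to 76221717, hg19) was at 37.6 FPKM in Jurkat (36.6 to 38.6) and 1.28 FPKM in TALL104 (1.07 to 1.51), 29.5-fold (24.9 to 35.1), the second largest FPKM ratio after CDC20. The scaffold INCENP was at 36.4 and 7.61 FPKM, 4.79-fold (4.47 to 5.13), among the 5 smallest. CDCA8 (borealin) was at 53.4 and 3.36 FPKM and the kinase AURKB at 32.2 and 2.89 FPKM, between these. In Jurkat the 4 subunits therefore lay within 1.66-fold of each other, and in TALL104 the highest, INCENP, was 5.96-fold above the lowest, BIRC5. In the mouse pair all 4 were higher in IVA12, Cdca8 beyond 1.5-fold (32.6 FPKM in EL4 and 51.99 FPKM in IVA12, log2 ratio -0.66) and the others within it, with Birc5 at 28.97 and 41.4 FPKM, Aurkb at 53.3 and 61.1 FPKM and Incenp at 72.6 and 82.4 FPKM.

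The centromere and kinetochore genes held 3 of the 6 lowest values of the 42 genes in TALL104, SPC24, SPC25 and CENPA. SPC24 was at 16.02 FPKM in Jurkat (15.2 to 16.8) and 0.944 FPKM in TALL104 (0.744 to 1.18), which with CDC25C made the 2 genes of the 42 under 1 FPKM there, and SPC25 was at 21.2 and 1.15 FPKM. Their partners in the NDC80 complex, the main microtubule-binding unit of the kinetochore, were NUF2 at 34.1 and 2.94 FPKM and NDC80 at 27.9 and 3.99 FPKM. The FPKM ratios of these 4 subunits ran from 6.99-fold (NDC80) to 18.5-fold (SPC25). CENPA, the histone H3 variant that marks centromeres, was at 20.7 and 1.37 FPKM (log2 ratio 3.19), the kinetochore protein gene CENPF at 46.9 and 4.36 FPKM, and the kinetochore kinesin CENPE at 24.9 and 3.47 FPKM. In Jurkat, EL4 and IVA12 all 42 genes were at 5 FPKM or more, and in TALL104 only 11 were, with 5 at 10 FPKM or more.

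Mouse subunits of the NDC80 complex lay on both sides. Ndc80 was at 23.6 FPKM in EL4 and 43.2 FPKM in IVA12 (log2 ratio -0.85), and Nuf2 at 18.6 FPKM in EL4 and 11.7 FPKM in IVA12 (log2 ratio 0.62), each beyond 1.5-fold in opposite directions, while their proteins pair within the complex. Spc24 leaned to IVA12 (39.98 and 56.9 FPKM) and Spc25 was nearly equal (16.3 and 15.3 FPKM). Cenpa had the second largest difference in favour of IVA12, at 19.1 FPKM in EL4 (18.5 to 19.8) and 36.7 FPKM in IVA12 (35.8 to 37.7), 1.92-fold (1.84 to 2.003). Cenpe (26.3 and 27.9 FPKM) and Cenpf (12 and 11.2 FPKM) were nearly equal, and Cenpf was the lowest of the 42 in both mouse lines.

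Among spindle motors and microtubule binders, KIF2C, a kinesin that takes microtubule ends apart, had the largest log2 ratio of FPKM + 1 after TPX2. KIF2C was at 46.3 FPKM in Jurkat and 2.74 FPKM in TALL104 (log2 ratio 3.66). HMMR, which binds spindle microtubules near the poles, was at 39.2 and 2.55 FPKM (log2 ratio 3.50), and KIF11, the motor that pushes spindle poles apart, at 61.7 and 5.76 FPKM (log2 ratio 3.21). NUSAP1, another binder of spindle microtubules, kept the highest level of this group in TALL104, at 15.2 FPKM beside 91.5 FPKM in Jurkat. Other annotated genes overlap 86.8% of its exons on the same strand and 9.76% on the opposite strand, so both values are uncertain. Mouse Nusap1 was higher in EL4, at 50.98 FPKM against 30.4 FPKM in IVA12 (log2 ratio 0.73). Kif11 (100.7 and 72.9 FPKM) and Kif2c (30.8 and 21.7 FPKM) leaned to EL4 and Hmmr (39.2 and 46.7 FPKM) to IVA12, all within 1.5-fold.

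The genes of the central spindle and cytokinesis had the lowest median log2 ratio of the groups with 3 or more genes in the human pair, 2.96, and still all 6 were higher in Jurkat. RACGAP1, which with the kinesin KIF23 forms centralspindlin, was at 38.01 FPKM in Jurkat and 9.78 FPKM in TALL104, 3.89-fold (3.66 to 4.13), while KIF23 was at 22.1 and 1.97 FPKM, 11.2-fold (10.1 to 12.5). The kinesin KIF20A, which carries the passenger complex to the central spindle, was at 28.4 and 1.73 FPKM (log2 ratio 3.43). PRC1, which bundles the overlapping microtubules, was at 32.9 and 6.53 FPKM (log2 ratio 2.17), with 57.6% of its exons overlapping another annotated gene on the same strand. ECT2, which turns on RhoA at the cell equator, was at 32.1 and 3.27 FPKM, and the ring scaffold ANLN at 24.3 and 1.98 FPKM.

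Of the mouse genes of this group, Kif23 and Prc1, a motor and a bundler of the central spindle, were higher in IVA12. Kif23 was at 44.5 FPKM in EL4 and 81.9 FPKM in IVA12 (log2 ratio -0.87) and Prc1 at 17.5 and 28.4 FPKM (log2 ratio -0.67). Ect2 (21.7 and 21.8 FPKM) and Anln (23.7 and 22.96 FPKM) were among the 5 smallest differences of the 42, with counting intervals of the FPKM ratio of 0.9502 to 1.05 and 0.986 to 1.08. Kif20a was at 46.97 and 49.4 FPKM, with 29.3% of its exons on the opposite strand of Cdc23, and Racgap1 at 49.1 and 56.8 FPKM. Centralspindlin thus lay toward IVA12 in both subunits, by 1.84-fold and 1.16-fold in FPKM.

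Set beside each other, the pairs did not share an order. Of the 41 genes higher in Jurkat, 5 were higher in EL4, 7 in IVA12 and 29 in neither, and CDC25B, the gene within 1.5-fold in the human pair, had the widest difference of the mouse pair. Across the 42 symbols, Spearman's rho between the human and the mouse log2 ratios was 0.07 and Pearson's r was -0.11. The levels themselves followed a partly common order, with rho of 0.84 between EL4 and IVA12, 0.69 between Jurkat and TALL104 and 0.65 between Jurkat and EL4, falling to 0.22 between TALL104 and IVA12. These are descriptions across 42 genes that are not independent, and lines of a species share gene lengths and annotation. CDC20 was among the 5 highest in Jurkat, EL4 and IVA12 but stood at 2.72 FPKM in TALL104.

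**Figure D4:**
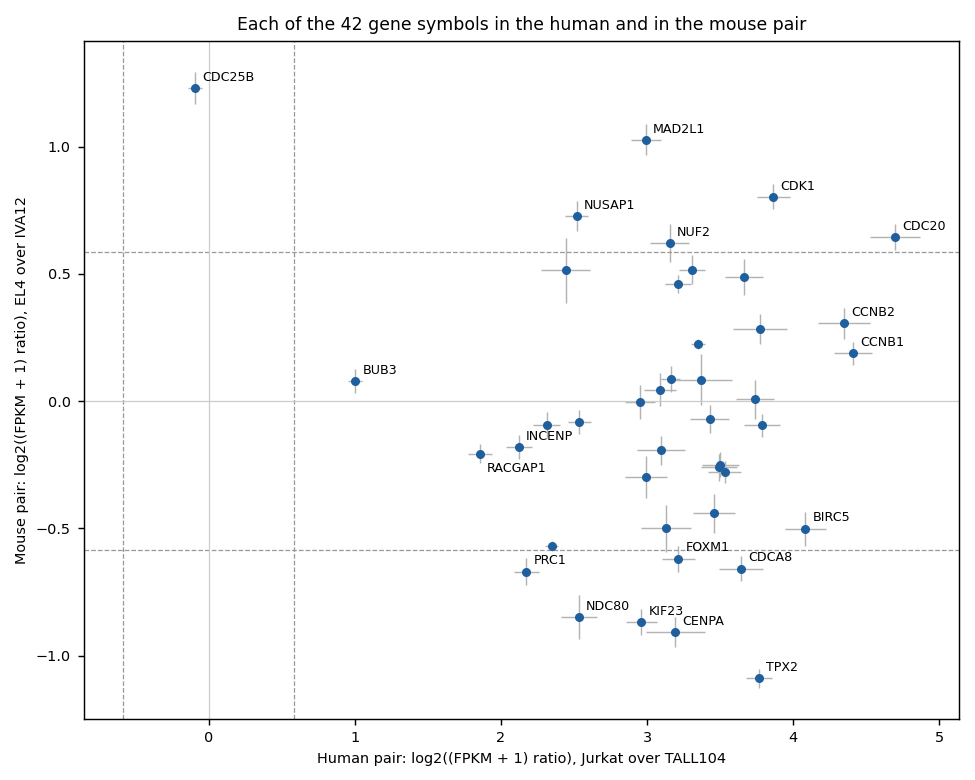
Log2 ratio of FPKM + 1 of each of the 42 symbols in the human pair (Jurkat over TALL104, horizontal) and the mouse pair (EL4 over IVA12, vertical), with bars for the 95% counting error and dashed lines at 1.5-fold. All points but CDC25B lie to the right of the dashed lines of the human pair, and 29 of the 42 lie between the dashed lines of the mouse pair.

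Other genes of mitosis, from lists that hold none of the 42, were read in the same way. Over all genes the medians are 0 in both pairs. Over genes at 1 FPKM or more in either line they are 0.10 (human) and -0.04 (mouse). Of all human genes 13.8% were higher in Jurkat and 11.4% in TALL104, and of those at 1 FPKM or more in either line 34.2% and 28.4%. Of 12 other CDK1 regulators and mitotic kinases, all 12 were higher in Jurkat, with a median log2 ratio of 2.93, led by the kinase PBK (48.8 FPKM in Jurkat and 1.65 FPKM in TALL104) and the phosphatase CDC25A (35.2 and 1.02 FPKM). Of the 3 CDC25 genes, only CDC25B was thus within 1.5-fold. Of 33 other kinetochore and centromere genes, 28 were higher in Jurkat (median 2.30), led by the centromere protein gene CENPW (48.7 and 1.07 FPKM) and SKA3, part of the complex that holds kinetochores to microtubules (34.9 and 1.52 FPKM), and 2 were higher in TALL104, MAD1L1, the partner of MAD2 (4.05 and 10.7 FPKM) and CENPC, an inner kinetochore gene (6.98 and 14.3 FPKM), both named here after their values were seen. Of 25 other spindle and cytokinesis genes, 23 were higher in Jurkat (median 2.54), led by the spindle fibre gene DLGAP5 (51.7 and 2.41 FPKM) and CEP55, which acts in the final cut between daughter cells (47.97 and 2.52 FPKM). All 8 condensin genes, whose complexes compact chromosomes, were higher in Jurkat (median 2.06), led by the condensin I genes NCAPH (42.97 and 2.798 FPKM) and NCAPG (42.8 and 2.92 FPKM).

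The lists of the anaphase-promoting complex and of cohesin had smaller medians. Of 17 genes of the anaphase-promoting complex and its regulators, 9 were higher in Jurkat, 1 in TALL104 (CDC16, 20.98 and 34.6 FPKM, named after its value was seen) and 7 in neither, with a median of 0.62. The largest ratio there was that of UBE2S, the second ubiquitin-conjugating enzyme of the complex (126 FPKM in Jurkat and 9.801 FPKM in TALL104), followed by the inhibitor FBXO5 (19.2 and 5.09 FPKM). Of 12 cohesin genes, 6 were higher in Jurkat, 1 in TALL104 (MAU2, 6.496 and 10.6 FPKM, named after its value was seen) and 5 in neither, with a median of 0.59. The 2 largest ratios were those of CDCA5 (sororin, 49.7 and 2.37 FPKM) and ESCO2 (8.62 and 0.726 FPKM), both of which act on cohesin around S phase. So the activator CDC20 and the enzymes UBE2C and UBE2S differed by more than 10-fold between the human lines, while the median gene of the complex list differed by less than 2-fold. Of the complex list 52.9% were higher in Jurkat and 5.88% in TALL104, and of cohesin 50% and 8.33%. Of human genes at 1 FPKM or more in either line these shares were 34.2% and 28.4%, with a median of 0.10.

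Among 12 genes of the MuvB, DREAM and B-MYB complexes, which bind the promoters of cell cycle genes, 7 were higher in Jurkat, 2 in TALL104 and 3 in neither (median 1.32). These shares, 58.3% and 16.7%, stand beside 34.2% and 28.4% of human genes at 1 FPKM or more in either line. MYBL2 (B-MYB), which joins MuvB when these genes are on, was at 87.2 FPKM in Jurkat and 3.37 FPKM in TALL104 (log2 ratio 4.34), and the E2F partner TFDP2 at 18.1 and 1.195 FPKM. RBL2 (p130), the pocket protein of the DREAM repressor complex in resting cells, was at 16.6 FPKM in Jurkat and 105 FPKM in TALL104 (log2 ratio -2.59), and the MuvB subunit LIN37 at 1.75 and 4.05 FPKM, both named after their values were seen. The mouse gene Mybl2 was at 17.6 and 15.3 FPKM and Rbl2 at 10.3 and 6.02 FPKM in EL4 and IVA12. Of 30 DNA replication genes, all 30 were higher in Jurkat (median 2.48), led by the helicase gene GINS1 (34.2 and 1.38 FPKM) and the clamp loader gene RFC3 (47.8 and 3.07 FPKM). The shift of the human pair was thus present in S phase genes as well as in the 42 genes, whose median was higher, 3.20.

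In the mouse pair the medians of these lists lay between -0.18 (other spindle and cytokinesis genes) and 0.26 (the anaphase-promoting complex). Of 12 other CDK1 regulators and kinases 2 were higher in EL4 and 1 in IVA12, with the widest ratios for the kinase Nek2 (14.5 and 44.2 FPKM in EL4 and IVA12) and the CDK subunit Cks2 (209 and 111 FPKM). Of 31 other kinetochore genes 2 were higher in EL4 and 4 in IVA12, with the widest ratios for Zwilch (18.6 and 42.5 FPKM) and Mis12 (17.9 and 33.2 FPKM). Of 24 other spindle genes 2 were higher in EL4 and 6 in IVA12, led by Tubg1 (39.5 and 75.6 FPKM) and Dlgap5 (12.1 and 22.98 FPKM). Of all mouse genes 9.75% were higher in EL4 and 11.2% in IVA12, and of those at 1 FPKM or more in either line 23.8% and 26.5%, and nothing is read about a list from counts this small. Of 17 genes of the anaphase-promoting complex 3 were higher in EL4 and 2 in IVA12, the latter being the small subunits Anapc11 (1.67 and 8.59 FPKM) and Anapc13 (5.99 and 13.2 FPKM). Of 8 condensin, 12 cohesin and 12 MuvB list genes, 2 each were higher in EL4 and none in IVA12, and these were Ncapg2 (47.1 and 17.1 FPKM), Ncaph (31.3 and 20.2 FPKM), Pds5b (22.2 and 12.9 FPKM), Smc1a (111 and 72.7 FPKM), Lin54 (11.8 and 6.46 FPKM) and Rbl2. Of 30 replication genes 10 were higher in EL4, led by Gins3 (30.5 and 6.82 FPKM), and 7 in IVA12, led by Gmnn (geminin, 32.4 and 79.2 FPKM). In these lists, mouse genes of the same symbol were not matched for CENPC, SGO2 and KIF4A.

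**Figure D5:**
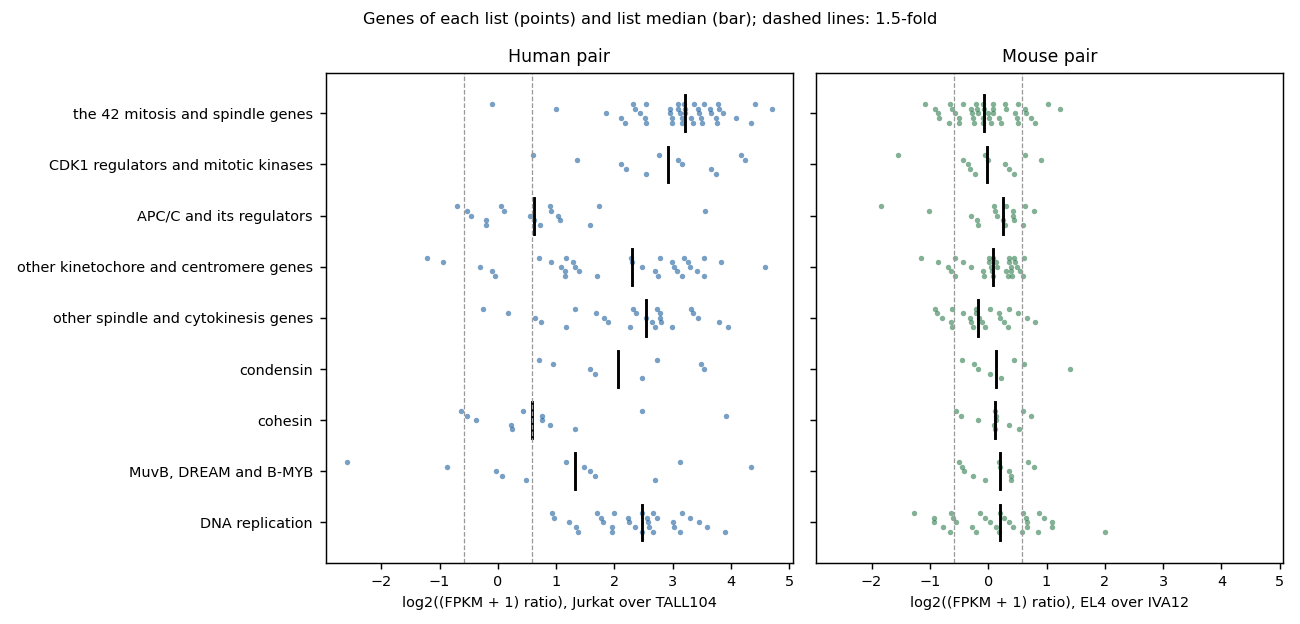
Log2 ratio of FPKM + 1 for the 42 genes and for the other gene lists in the human pair (left, Jurkat over TALL104) and the mouse pair (right, EL4 over IVA12); each point is a gene, each bar a list median, and the dashed lines mark 1.5-fold. The human medians run from 0.59 for cohesin to 3.20 for the 42 genes, and the mouse medians stay between -0.18 and 0.26.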

How the data were processed

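The 4 RNA-seq libraries (1 each of Jurkat, TALL104, EL4 and IVA12) were poly(A)-selected and stranded, and per the study's methods were aligned by the authors with STAR (version 2.5.1b in the submitters' processing notes) to a combined human hg19 and mouse mm10 reference, with reads per gene counted by featureCounts (1.6.3). The authors deposited a single table of FPKM for both species. How genes were measured in length, which strand setting was used and how multiply aligned reads were treated are not given in the sources used here.

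Reads were recovered from the FPKM, since each value is a whole number of reads over a gene length and the library total, at a relative tolerance of 1e-09 and lengths up to 300000 bases. All values came out whole. Lengths solved in this way matched the annotation in 22.2% (human) and 72.8% (mouse) of genes, so reads of the rest can miss a common factor and their intervals are then too wide; FPKM are not affected. Lines were compared within a species by the ratio of FPKM + 1, called above 1.5-fold, which draws ratios of low genes toward 1. Intervals at 95% are exact (Poisson for a level, Clopper-Pearson on the split of reads for a ratio of FPKM), and reads are not independent molecules. With 1 library per line, no test was possible and nothing separates a line from its culture. Symbols, positions and overlaps came from GENCODE release 44 mapped to hg19 and release M21 for mm10. Promoter sequences came from RefSeq (GRCh38.p14) by symbol, with no coordinates carried between builds.

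The 42 genes, the role groups, the other gene lists (CDK1 regulators, anaphase-promoting complex, kinetochore, spindle, condensin, cohesin, MuvB, replication, and T cell, B cell and myeloid markers) and the thresholds were chosen with earlier results of these data known. All 42 genes are given. Of the other lists of mitosis and replication genes, 2 genes per pair are named, those farthest from a ratio of 1, with additions marked in the text. Mybl2 was named beside MYBL2. The T cell, B cell and myeloid markers named do not all follow this rule. A marker gene is not reported here. Alternatives were pseudocounts of 0.1 and 0.01, a minimum of 1 FPKM, equal own-species sums, leaving out mitochondrially encoded genes, scaling by the median ratio, a 2-fold threshold, and detection at 0.1 and 5 FPKM. The calculation was tested on simulated data. Python 3.11.15, NumPy 2.4.6, pandas 2.3.3, SciPy 1.17.1 and matplotlib 3.10.9 were used.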

Additional observations from a re-analysis of the deposited data

Results flagged for a closer look

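Reads on the mitosis and spindle genes of the other species were counted in each library, where none belongs, and were above the limit that a count of 0 allows (3 reads). On the 42 mouse genes, Jurkat had 119 reads and TALL104 had 72, and on the 42 human genes, EL4 had 85 and IVA12 had 263. Set against the reads on the library's own 42 genes, these came to 0.0376% (Jurkat), 0.208% (TALL104), 0.0261% (EL4) and 0.0971% (IVA12). The share in TALL104 stands over fewer own-species reads, 34614 against 270539 to 326026 in the other libraries. IVA12 had the most, with 41 of the 42 human genes above 0 and NUSAP1 the highest at 0.289 FPKM, against 0.175% of its whole FPKM on human genes. No read-length window of the 42 genes of either species was found exactly in annotated transcripts of the other species. The source of these reads was not tested.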

How the results depend on the processing

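The counts of the human pair (41 genes higher in Jurkat, 0 in TALL104) were the same under all 7 alternatives tried for them, the 2-fold threshold included. BUB3 passed 2-fold by less than its counting error, at a log2 ratio of 1.001 with a counting SD of 0.025. The median log2 ratio of the 42 human genes, 3.20, was 3.57 with a pseudocount of 0.1 and 3.62 with 0.01. Under the other alternatives it was from 3.09 to 3.20. Dividing by the median ratio of the genes at 1 FPKM or more in both lines removes a shift of 0.11 between the human lines and -0.02 between the mouse lines. In the mouse pair the counts of 6 higher in EL4 and 7 in IVA12 became 2 and 1 at a 2-fold threshold and stayed at 6 and 7 under the other 6, with a median between -0.08 and -0.06. In TALL104 the 40 genes at 1 FPKM or more became 11 at 5 FPKM and 42 at 0.1 FPKM, while the other libraries kept 42 at each level. Of 168 values of single genes, 61 moved by more than their counting error, 39 under the pseudocount of 0.1 and 22 under the median ratio, and the sign changed for Ect2 in the mouse pair, from -0.0037 to 0.017 on the log2 scale under the median ratio, far under 1.5-fold in both.

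No paired analysis was possible because each line has 1 library. Depth limits the genes of TALL104 with the fewest reads most, CDC25C (43), SPC25 (60) and SPC24 (76). Differences between cultures of a line were not measured, so no ratio can be set against them, and the mouse differences near 1.5-fold (Nuf2, Foxm1 and Mki67) depend on where the threshold lies.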
